A study of Mus musculus with 4 samples.

Results

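*Tbx1*, *Tbx2*, *Tbx3*, *Tbx5* and *Tbx20* are the 5 T-box transcription factor genes described here, found by symbol among the 32285 genes counted in single cells of mouse gastruloids. Gastruloids are aggregates of embryonic stem cells that organise themselves and form many of the early tissues of the embryo. All were grown from 1 wild-type mouse line, Zx1, and dissociated for 1 Chromium 3′ single-cell library at each of days 4, 5, 6 and 11. By the study's methods every aggregate received a pulse of the Wnt activator CHIR99021. From day 4 to day 7 the medium then held bFGF, VEGF and ascorbic acid. The groups are times in culture and did not differ in genotype. They differed in exposure to these factors, since day 4 was its start, days 5 and 6 fell within it and day 11 came after it. A library pools at least 8 gastruloids, and a cell cannot be traced to its gastruloid. The kept cells numbered 6552, 6447, 5239 and 7837 at days 4, 5, 6 and 11, with median depths of 24127, 28063, 24653 and 11421 UMIs (unique molecular identifiers, 1 per captured transcript). Between 5 and 18 cell barcodes were shared by any 2 of the libraries. With 1 library per day there was no replicate error and no test could be run. The intervals given are at 95% and cover counting error only.

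T-box factors bind a shared DNA element through their T-box domain, and several act in the same cells with opposite effects. In the heart *Tbx5* and *Tbx20* promote the myocardial programme together with Nkx2-5 and Gata factors, whereas *Tbx2* and *Tbx3* repress chamber genes in the atrioventricular canal, the outflow tract and, for *Tbx3*, the pacemaker tissue. *Tbx20* is known from mouse hearts to hold down *Tbx2* in chamber myocardium, and *Tbx1* acts in the pharynx and in second heart field progenitors rather than in beating muscle.

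In the mouse assembly GRCm38 the 5 genes lie on 4 chromosomes. *Tbx1* spans chr16:18580979-18590671 on the minus strand, *Tbx20* spans chr9:24718138-24774303 on the minus strand and *Tbx2* spans chr11:85832551-85841948 on the plus strand. *Tbx3* (chr5:119670669-119684724) and *Tbx5* (chr5:119832668-119885219) are neighbours on the plus strand, with 147.943 kb and no protein-coding gene between them. The paralog of *Tbx5*, *Tbx4*, lies 44.473 kb from *Tbx2* with 1 protein-coding gene between. An antisense RNA gene, *Tbx3os1*, overlaps *Tbx3* and was counted as a feature of its own, at 0.476 to 9.15 CPM over the 4 days. The 3′ chemistry keeps the strand of the transcript, but the strand setting of the counting is not given in the sources used here.

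Promoters from RefSeq (GRCm38.p6) were matched for 2 of the 5 genes, *Tbx20* and *Tbx1*, and those of *Tbx2*, *Tbx3* and *Tbx5* were not analysed here. At day 11 the matched members had the highest and the lowest ratio of *Myl7*-high to other cells. The 250 bases before each start are printed on the strand of the gene, with capitals marking GC boxes (GGGCGG or its complement CCGCCC).
Tbx20, chr9:24774304-24774553: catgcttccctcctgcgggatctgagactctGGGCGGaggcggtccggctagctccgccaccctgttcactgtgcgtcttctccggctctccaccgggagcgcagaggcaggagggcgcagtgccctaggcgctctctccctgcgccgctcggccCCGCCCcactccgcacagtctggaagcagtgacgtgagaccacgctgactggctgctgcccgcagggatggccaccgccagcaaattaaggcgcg
Tbx1 first start, chr16:18588900-18589149: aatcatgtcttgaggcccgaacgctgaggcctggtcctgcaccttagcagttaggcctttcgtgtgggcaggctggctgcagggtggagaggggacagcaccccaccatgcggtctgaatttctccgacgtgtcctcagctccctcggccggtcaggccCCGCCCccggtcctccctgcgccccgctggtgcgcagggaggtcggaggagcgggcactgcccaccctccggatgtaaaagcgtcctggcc
Tbx1 second start, chr16:18590672-18590921: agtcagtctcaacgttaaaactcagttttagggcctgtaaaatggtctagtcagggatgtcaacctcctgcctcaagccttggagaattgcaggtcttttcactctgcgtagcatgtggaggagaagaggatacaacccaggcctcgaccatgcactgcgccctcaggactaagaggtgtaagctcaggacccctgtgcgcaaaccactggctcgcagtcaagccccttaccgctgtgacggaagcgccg
The *Tbx20* promoter held 2 GC boxes, the first *Tbx1* promoter held 1 and the second held none, against 32.7% of all 32851 promoters in the table with at least 1. A GATA motif (GATAA), an NK2 motif (AAGTG), a T-box element (GGTGTGA) and a CCAAT box (CCAAT) were also searched on both strands. None of these was in the 3 windows, while 22.6%, 40.7%, 3.33% and 33.8% of all promoters held them. No searched motif overlapped another, and the matches are a description of these letters only.

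Levels are given as CPM, the UMIs of a gene per 1000000 UMIs of the same cells (the unit, not a short form for cardiopharyngeal mesoderm). Capture differs between transcripts, so the levels of different genes are not ranked here. Each member had its own course over the 4 days. *Tbx5*, required for atrial and inflow development, was at 2.03 CPM (1.83 to 2.24) at day 4 and 1.47 (1.30 to 1.65) at day 5. It was at 18.5 CPM (17.9 to 19.2) at day 6 and 22.5 (21.6 to 23.3) at day 11, so days 4 and 5 were low and days 6 and 11 high. The day 6 level was 12.6 times that of day 5 (11.2 to 14.3). *Tbx20*, a regulator of myocardium and endocardium, was already present at day 4 at 14.0 CPM (13.5 to 14.5), was lower at day 5 with 8.30 (7.91 to 8.71) and reached 24.4 (23.6 to 25.2) at day 6. Its day 11 level of 25.0 CPM (24.1 to 25.9) did not differ from that of day 6 beyond counting error.

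*Tbx3*, which also takes part in early stem cell and mesoderm programmes, was highest at day 4 and lowest at day 6. Its level was 99.1 CPM (97.7 to 100.5) at day 4, 45.8 (44.9 to 46.8) at day 5 and 9.55 (9.06 to 10.1) at day 6, and day 11 was again higher with 24.8 (23.9 to 25.7). *Tbx2*, its close paralog, was higher on each later day, and its 4 levels in that order were 6.75, 9.49, 15.3 and 23.2 CPM. *Tbx1* was sparse on every day, with 101, 252, 152 and 158 UMIs in all. Its level was 0.529 CPM (0.431 to 0.643) at day 4, the lowest of the 4, and 1.28 (1.12 to 1.44), 1.02 (0.864 to 1.19) and 1.39 (1.19 to 1.63) at days 5, 6 and 11. Day 6 was at 0.799 times day 5 (0.649 to 0.981) and day 11 at 1.37 times day 6 (1.09 to 1.72).

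From day 5 to day 6, *Tbx5* and *Tbx20*, 2 of the 5 members, were higher by 2-fold or more, as were 18% of the 17471 genes with at least 30 UMIs, and *Tbx3* was lower by as much, as were 14.2%. From day 4 to day 5 only *Tbx1* among the members was higher by 2-fold (2.41 times, 1.91 to 3.07, against 19.2% of genes) and only *Tbx3* lower (0.463 times, 0.451 to 0.474, against 7.5%). From day 6 to day 11 only *Tbx3* passed that size (2.60 times, 2.43 to 2.77, against 19.1% of genes higher and 7.89% lower). A sum over all cells does not tell more expressing cells from more transcripts per cell. At day 6 *Tbx5* was found in 25.1% of cells (24.0 to 26.3) and at day 5 in 3.91% (3.45 to 4.41), or 8.96% and 0.729% after each cell had been thinned to 5000 UMIs. The shares in cells that should lack it were 1.28% of neural ectoderm-like cells at day 6 (median 35595 UMIs) and 0.543% of epiblast-like cells at day 5 (median 30063 UMIs), or 0 in both after thinning. Endothelium-like cells, set beforehand as a second background class, were higher, at 17.4% at day 6 and 3.95% at day 5. Their thinned shares were 2.72% and 0.526%, so this class is not a low background for *Tbx5*.

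**Figure D1:**
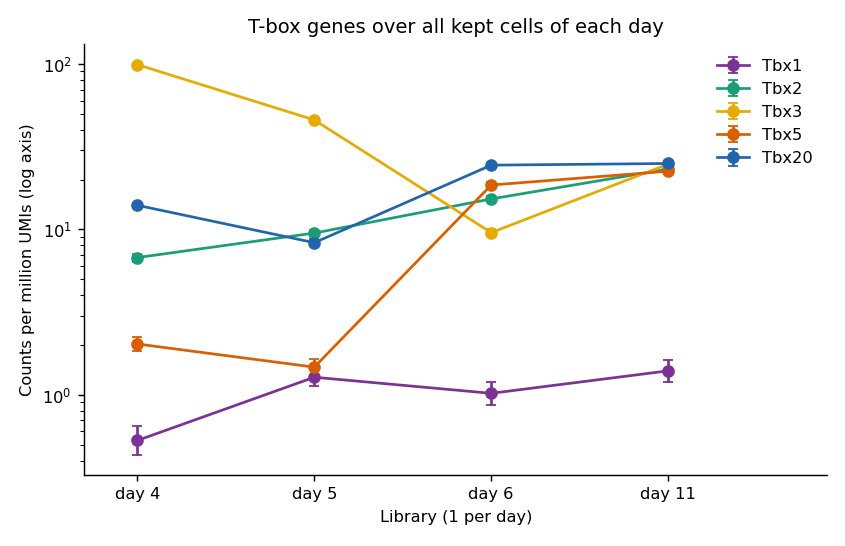
CPM of the 5 members over all kept cells (vertical log axis) against the library of each day, which are evenly spaced on the horizontal axis. Points are 1 library each and bars are exact Poisson intervals, and *Tbx5* stands at 1.47 CPM at day 5 and 18.5 at day 6 while *Tbx3* goes from 99.1 at day 4 to 9.55 at day 6.

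*Myl7*, the atrial-type myosin light chain that all early cardiomyocytes express, was used to set cardiac muscle cells apart. A cell with 30 or more *Myl7* UMIs per 10000 of its UMIs was called *Myl7*-high. No cell passed at day 4 or 5, 425 of 5239 (8.11%, 7.39 to 8.88) passed at day 6 and 1271 of 7837 (16.2%, 15.4 to 17.1) at day 11. Cell classes were built without the T-box genes and *Myl7*, and named from markers such as *Tnnt2*, *Myh6* and *Actn2*. Of the *Myl7*-high cells 75.1% fell into the cardiomyocyte-like class at day 6 and 98.1% at day 11, and 93.8% and 94.4% of that class were *Myl7*-high. *Myl7*-high cells had a median of 23316 UMIs at day 6 against 24836 in other cells, and 17570 against 10800 at day 11.

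*Tbx20* and *Tbx5* were higher in *Myl7*-high cells on both days. *Tbx20* was at 79.2 CPM (74.0 to 84.6) in *Myl7*-high and 20.04 (19.3 to 20.8) in other cells at day 6, a ratio of 3.95 (3.66 to 4.26). At day 11 it was at 77.0 CPM (73.7 to 80.5) and 9.44 (8.80 to 10.1), a ratio of 8.16 (7.52 to 8.86). *Tbx5* was at 62.5 CPM (57.9 to 67.3) and 15.01 (14.4 to 15.7) at day 6, a ratio of 4.16 (3.81 to 4.54). Its day 11 levels were 61.8 CPM (58.8 to 64.9) and 10.7 (10.0 to 11.4), a ratio of 5.79 (5.34 to 6.28). With a limit of 100 *Myl7* UMIs per 10000 the *Tbx20* ratio at day 11 was 4.42. Within *Myl7*-high cells the levels of the 2 days did not differ beyond counting error, at 0.973 times for *Tbx20* (0.898 to 1.05) and 0.990 times for *Tbx5* (0.905 to 1.08) from day 6 to day 11. In other cells both were lower at day 11, *Tbx20* at 0.471 times (0.435 to 0.509) and *Tbx5* at 0.711 times (0.658 to 0.769) the day 6 level. Day 11 was higher than day 6 by 2-fold or more for 12.1% of genes in *Myl7*-high cells and 18.2% in other cells, and lower for 10.3% and 7.64%, and of the members *Tbx20* in other cells and *Tbx2* in *Myl7*-high cells were lower by that much. *Tbx1* in *Myl7*-high cells, at 0.425 times, rests on 3 UMIs on each day and its interval (0.0569 to 3.17) spans 1. In other cells *Tbx3*, at 2.84 times (2.65 to 3.04), and *Tbx2* were higher by 2-fold or more. The share of all *Tbx20* UMIs that lay in *Myl7*-high cells was 24.1% at day 6 and 71.0% at day 11, and that of *Tbx5* 25.0% and 63.4%. These shares also depend on the size of the set. Of the UMIs of all genes, *Myl7*-high cells held 11076831 of 149096316 at day 6 and 26093143 of 113301642 at day 11.

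*Tbx2* stood on opposite sides at the 2 days. At day 6 it was at 32.4 CPM (29.1 to 35.9) in *Myl7*-high and 13.9 (13.3 to 14.5) in other cells, a ratio of 2.33 (2.08 to 2.61). At day 11 it was at 7.43 CPM (6.43 to 8.56) and 27.9 (26.8 to 29.0), a ratio of 0.267 (0.229 to 0.309), or 0.402 over every deposited cell with more than 200 genes. The level within *Myl7*-high cells at day 11 was 0.229 times that of day 6 (0.192 to 0.274), and within other cells 2.01 times (1.89 to 2.13). *Tbx3* showed no difference beyond counting error at day 6, with 10.2 CPM (8.41 to 12.3) in *Myl7*-high and 9.50 (8.99 to 10.0) in other cells, a ratio of 1.07 (0.878 to 1.30). At day 11 its ratio was 0.648 (0.585 to 0.716), from 17.5 and 27.0 CPM. *Tbx1* had 3 UMIs in all *Myl7*-high cells of day 6 and 3 in those of day 11, against 1.08 and 1.78 CPM in other cells. The ratios were 0.251 (0.0512 to 0.747) at day 6 and 0.0647 (0.0132 to 0.193) at day 11, with 0.138 to 0.451 and 0 to 0.143 over the alternatives.

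Among all genes with at least 30 UMIs over both sets, 8.78% of 15504 were higher by 2-fold or more in *Myl7*-high cells at day 6 and 19.4% lower, and at day 11 11.5% of 15803 were higher and 29.1% lower. Of the 5 members *Tbx2*, *Tbx5* and *Tbx20* were higher at day 6 and *Tbx1* lower, and at day 11 *Tbx5* and *Tbx20* were higher and *Tbx1* and *Tbx2* lower. With 1 UMI on each side as the only minimum, 14.3% of genes were higher and 15% lower at day 6, and 14.5% and 27.5% at day 11. The median ratio of all genes was 0.887 at day 6 and 0.759 at day 11. A ratio above that of *Tbx5* was found for 3.61% of genes at day 6 and 3.71% at day 11, and above that of *Tbx20* for 3.83% and 2.84%.

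**Figure D2:**
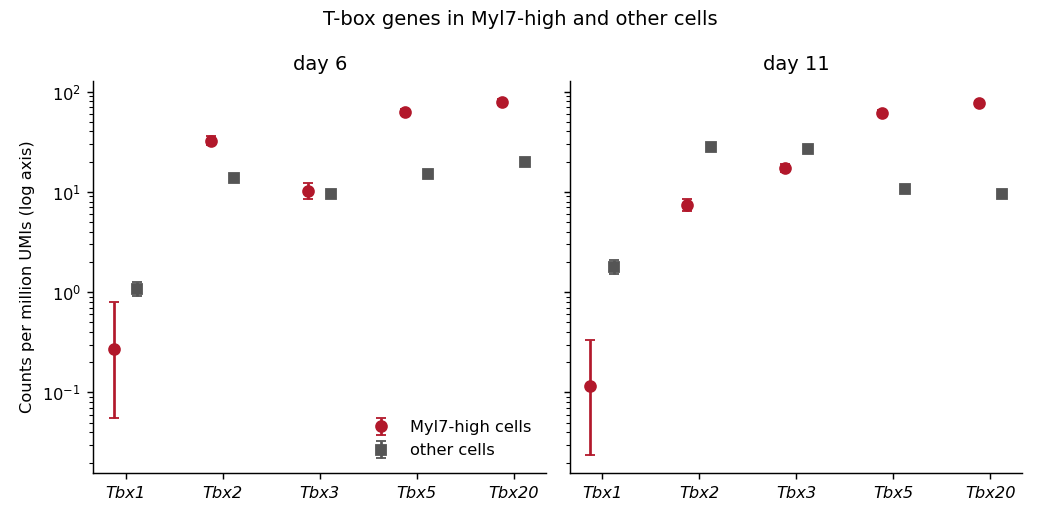
CPM of each member (vertical log axis) in *Myl7*-high cells (circles) and other cells (squares) at day 6 and day 11, with exact Poisson intervals. *Tbx5* and *Tbx20* are higher in *Myl7*-high cells on both days, and *Tbx2* is at 32.4 against 13.9 CPM at day 6 and 7.43 against 27.9 at day 11.

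Shares of positive cells, with at least 1 UMI, lay on the same side as the CPM for *Tbx1*, *Tbx2*, *Tbx5* and *Tbx20* on both days. For *Tbx3* at day 6 they did not, with 12.9% of *Myl7*-high and 15.7% of other cells, or 2.84% and 3.64% thinned. *Tbx20* was found in 70.4% of *Myl7*-high cells (65.8 to 74.7) and 24.4% of other cells (23.2 to 25.6) at day 6, or 32.6% and 9.26% after thinning. At day 11 the shares were 58.3% (55.5 to 61.0) and 6.61% (6.02 to 7.24), or 28.3% and 3.77% thinned. Background in neural ectoderm-like cells was 2.36% at day 6 and 0.737% at day 11 (median 10698 UMIs), or 0.214% and 0.287% thinned. In endothelium-like cells, the second background class, *Tbx20* was found in 27.5% and 10.2%, or 9.54% and 4.57% thinned. These thinned shares were no lower than those of other cells. *Tbx2* was found in 42.4% of *Myl7*-high and 22.5% of other cells at day 6, and in 10.9% and 24.7% at day 11. The thinned *Tbx2* shares were 13.9% and 7.29% at day 6 and 3.25% and 13.7% at day 11, with 1.07% and 0.669% of neural ectoderm-like cells as background. For *Tbx1* the *Myl7*-high shares, 0.471% at day 6 and 0.236% at day 11, rest on 2 and 3 cells. They lay near the 0.214% and 0.276% of neural ectoderm-like cells and are read as background.

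The cells were then ordered in bins of *Myl7* per 10000 UMIs. At day 6 the high *Tbx5* and *Tbx20* levels began well below the limit that defines *Myl7*-high cells. Cells without *Myl7* held 14.0 CPM of *Tbx20* (13.1 to 14.98), those with up to 1 per 10000 held 14.9 (13.9 to 15.9), those with 1 to 3 per 10000 held 43.5 (39.3 to 48.1) and those with 3 to 10 held 65.9 (59.3 to 73.0). The 2 bins from 30 to 300 held 79.0 CPM each. *Tbx5* was at 9.16 CPM without *Myl7*, 37.1 (33.2 to 41.4) at 1 to 3, and 64.1 (57.6 to 71.1) at 3 to 10, close to the 63.7 CPM (57.5 to 70.4) at 100 to 300. Between these, at 10 to 30, it was at 51.7 CPM (45.5 to 58.4). *Tbx2* was at 11.8 CPM without *Myl7*, 23.5 at 1 to 3 and 28.1 at 3 to 10. It was at 22.8 CPM at 10 to 30 and 33.1 at 100 to 300, so its course was not a steady rise. Cells with up to 1 *Myl7* UMI per 10000 were thus like those with none for *Tbx20*, and those at 1 to 3 lay between them and the cells at 3 to 10.

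At day 11 the members had different courses along *Myl7*. *Tbx20* was at 14.2 CPM (9.59 to 20.3) in cells with 3 to 10 *Myl7* per 10000, 82.9 (70.5 to 96.9) at 10 to 30 and 95.1 (88.1 to 102.6) at 30 to 100. It was lower above that, with 74.1 (69.9 to 78.6) at 100 to 300 and 54.0 (46.7 to 62.0) over 300. *Tbx5* was at 19.9 CPM (14.1 to 27.4) at 10 to 30, 42.6 (38.0 to 47.7) at 30 to 100, 67.5 (63.5 to 71.8) at 100 to 300 and 75.1 (66.5 to 84.6) over 300. In the cells richest in *Myl7*, *Tbx20* was below its highest bin and *Tbx5* at its own. *Tbx2* went the other way from *Tbx5*, with 30.03 CPM (28.6 to 31.6) in cells without *Myl7*, 9.29 (7.18 to 11.8) at 30 to 100 and 4.13 (2.31 to 6.81) over 300. Bins at day 11 held 118 to 4227 cells, with median depths of 8944.5 to 19608 UMIs.

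**Figure D3:**
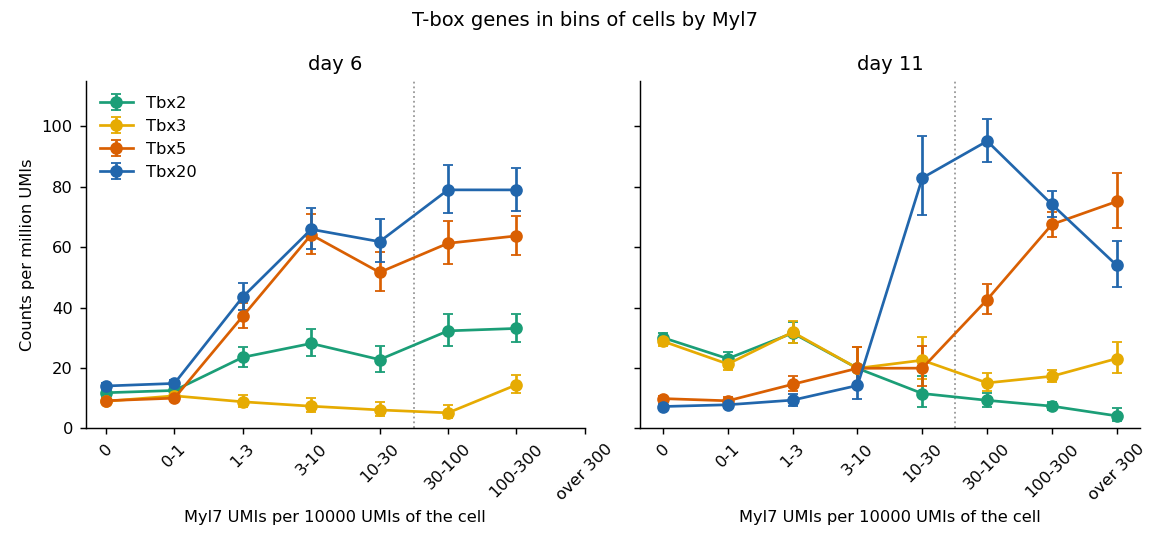
CPM of *Tbx2*, *Tbx3*, *Tbx5* and *Tbx20* in bins of cells by *Myl7* UMIs per 10000 at day 6 and day 11, with exact Poisson intervals and a dotted line at 30. At day 6 *Tbx20* and *Tbx5* reach 65.9 and 64.1 CPM at 3 to 10, whereas at day 11 *Tbx20* peaks at 95.1 CPM in the bin from 30 to 100 and *Tbx5* is at 75.1 over 300; bins under 20 cells are left out.

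Cell classes showed where the members lay outside cardiac muscle. At day 6 the 775 cardiac progenitor-like cells, only 9.29% of which were *Myl7*-high, held 72.4 CPM of *Tbx20* (68.7 to 76.3), 67.3 of *Tbx5* (63.7 to 71.1) and 29.3 of *Tbx2* (26.9 to 31.8). The 340 cardiomyocyte-like cells held 77.9 CPM of *Tbx20* (72.3 to 83.9), 60.7 of *Tbx5* (55.7 to 66.0) and 31.4 of *Tbx2* (27.9 to 35.3), so that the intervals of both classes overlapped for all 3 genes. Clustered at the coarser Leiden resolution of 0.5, the cardiac progenitor-like class held 43.2 CPM of *Tbx20* and 36.1 of *Tbx5*. An unnamed group of 387 cells led by *Phlda2*, *Col3a1* and *Hand1*, with no *Myl7*-high cell, was at 61.7 CPM of *Tbx20* (56.7 to 67.0) and 19.8 of *Tbx5* (16.99 to 22.9). Endothelium-like cells held 20.9 CPM of *Tbx20* (18.5 to 23.4) and 8.23 of *Tbx5* (6.79 to 9.89). At day 11 these levels in the endothelium-like class were 6.83 CPM of *Tbx20* (5.25 to 8.74) and 15.2 of *Tbx5* (12.8 to 17.9). Neural ectoderm-like cells held at most 1.36 CPM of any member at day 6 and 2.71 at day 11.

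At day 11 *Tbx2* and *Tbx3* were both high in mesenchyme-like cells, a class named from genes such as *Prrx1*, *Twist1* and *Col1a1*. The 2412 cells held 52.3 CPM of *Tbx2* (49.6 to 55.1) and 52.8 of *Tbx3* (50.1 to 55.6), and the group of 1026 cells led by *Scx*, *Fibin* and *Slc1a3* held 67.9 (63.0 to 73.0) and 86.1 (80.6 to 91.8). *Tbx3* was at 44.3 CPM (31.7 to 60.4) in 47 neural crest-like cells, which overlaps the mesenchyme-like level. The group led by *Scx*, *Fibin* and *Slc1a3* had 0.468 CPM of *Tbx20* (0.152 to 1.09) but 25.9 of *Tbx5* (23.0 to 29.2). The 1321 cardiomyocyte-like cells held 7.09 CPM of *Tbx2* and 17.7 of *Tbx3*. Outside the muscle class, the 434 cells led by *Gal*, *Colec11* and *Pde1a*, of which 0.461% were *Myl7*-high, held 67.5 CPM of *Tbx20* (60.4 to 75.2) and 45.3 of *Tbx5* (39.5 to 51.6). They met the naming rule of no class.

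*Tbx1* was highest in other cells. At day 5 it was at 21.1 CPM (16.9 to 26.0) in 181 endoderm-like cells led by *Tnfrsf12a*, *Rgcc* and *Cldn6*, and at 7.99 (6.48 to 9.75) in 520 unnamed cells led by *Actc1*, *Rgcc* and *Krt15*. At day 11 it was at 10.7 CPM (8.24 to 13.5) in the 279 skeletal myoblast-like cells, named from *Myod1*, *Myog* and others, and at 10.1 (4.596 to 19.1) in 35 endoderm-like cells. The myoblast-like level of *Tbx20* was 0.323 CPM (0.0391 to 1.17) and of *Tbx5* 0.646 (0.176 to 1.65), while *Tbx2* was at 33.2 CPM (28.9 to 38.1). *Tbx1* was found in 13.6% of these cells (median 20888 UMIs), against 0.276% of neural ectoderm-like and 0.226% of endothelium-like cells, or 2.55%, 0.0956% and 0 after thinning. In cardiomyocyte-like cells of day 11 1 UMI of *Tbx1* was counted, 0.0371 CPM (0.00094 to 0.207). At day 4 *Tbx3* was widespread, from 6.56 CPM in 124 streak-like cells led by *Hoxaas3*, *Hoxb5os* and *Hoxc8* to 177.2 (172.6 to 181.9) in 892 unnamed cells led by *Ahnak*, *Stard8* and *Krt18*. Epiblast-like cells of that day held 31.4 CPM of *Tbx3* (28.7 to 34.3), so for *Tbx3* this class is not a measure of background.

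**Figure D4:**
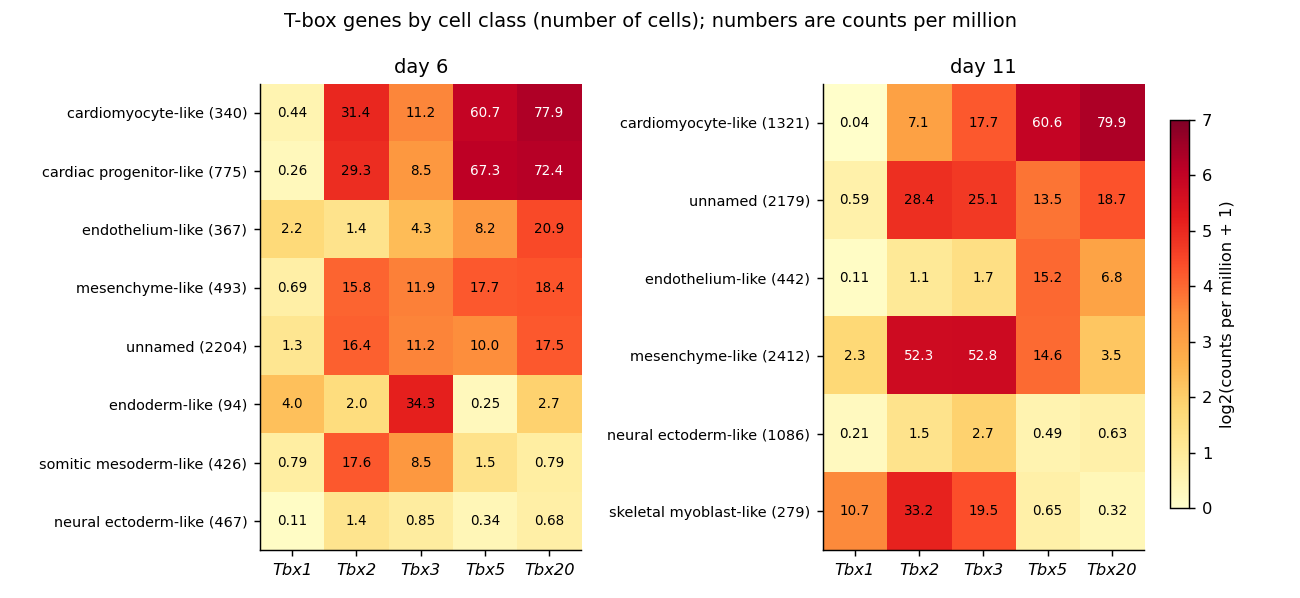
CPM of the members (numbers) in each cell class of at least 50 cells at day 6 and day 11, with the number of cells in brackets and colour for log2(CPM + 1). Rows are ordered by *Tbx20*, and at day 11 the cardiomyocyte-like class is high in *Tbx20* and *Tbx5* (79.9 and 60.6), the mesenchyme-like class in *Tbx2* and *Tbx3* (52.3 and 52.8) and the skeletal myoblast-like class in *Tbx1* (10.7).

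The *Myl7*-high cells of day 11 were not alike. *Myl2*, the ventricular light chain, was at 30 or more per 10000 UMIs in 241 of them, and of the rest 358 had 5 or more per 10000 of *Shox2*, a regulator of the sinus venosus and pacemaker region, which left 672 with neither. *Tbx5* was at 94.5 CPM (87.7 to 101.8) in *Shox2*-high, 37.8 (32.9 to 43.3) in *Myl2*-high and 53.4 (49.5 to 57.5) in the remaining cells. *Tbx3*, which marks pacemaker tissue in the heart, was at 32.1 CPM (28.2 to 36.5), 15.4 (12.4 to 19.1) and 9.93 (8.29 to 11.8) in the same order. *Shox2*-high over *Myl2*-high cells, the ratios were 2.50 (2.14 to 2.93) for *Tbx5* and 2.08 (1.62 to 2.69) for *Tbx3*. *Tbx20* was slightly lower in *Shox2*-high cells, at 65.2 CPM (59.5 to 71.2) against 86.8 (79.3 to 94.9), a ratio of 0.751 (0.661 to 0.853). *Tbx2* had 14 UMIs in *Shox2*-high and 57 in *Myl2*-high cells, 1.87 CPM (1.02 to 3.15) and 10.1 (7.67 to 13.1), a ratio of 0.185 (0.0953 to 0.337). Of 11010 genes with at least 30 UMIs in both subsets together, 5.98% were higher by 2-fold or more in *Shox2*-high cells, as were *Tbx3* and *Tbx5*, and 3.34% were lower, as was *Tbx2*. The paralogs *Tbx2* and *Tbx3* thus lay on opposite sides within the *Myl7*-high cells of day 11, while both were high in mesenchyme-like cells.

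The clusters of the cardiomyocyte-like class, found without the T-box genes, showed the same division. The 357 cells led by *Acta2*, *Vsnl1* and *Pnmt* held 92.4 CPM of *Tbx5* (85.4 to 99.9), 34.1 of *Tbx3* (29.9 to 38.7) and 1.16 of *Tbx2* (0.499 to 2.28). The 361 cells led by *Myl2*, *Myh7* and *Myl3* held 32.8 CPM of *Tbx5* (29.0 to 37.1) and 98.9 of *Tbx20* (92.1 to 106.0). The 204 cells led by *Nppa*, *Sln* and *Casq1* were at 50.6 CPM of *Tbx20* (44.7 to 57.1) and 69.7 of *Tbx5* (62.7 to 77.3), the lowest *Tbx20* level of the 5 clusters of this class. These clusters and the *Myl2* and *Shox2* sets are cut from the same cells and are not separate evidence. At day 6 only 22 *Myl2*-high and 27 *Shox2*-high cells were found, and *Tbx5* was at 70.9 CPM (52.4 to 93.7) and 126.5 (100.9 to 156.6) in them. *Tbx3* lay the other way from day 11, at 60.8 CPM (43.8 to 82.1) in *Myl2*-high and 9.04 (3.32 to 19.7) in *Shox2*-high cells, and so did *Tbx20*, at 34.7 (22.2 to 51.7) and 116.0 (91.5 to 144.9). *Tbx2* was at 40.5 CPM (26.9 to 58.5) and 21.1 (11.5 to 35.4), with overlapping intervals.

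**Figure D5:**
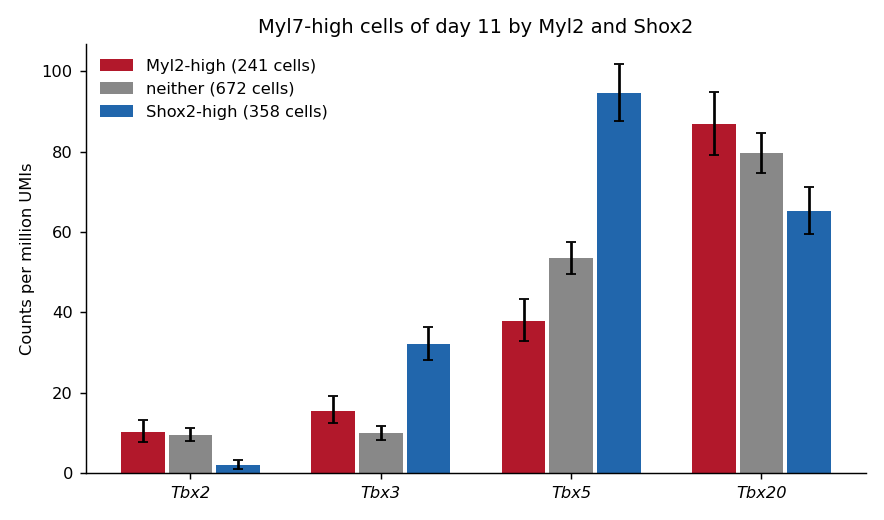
CPM of 4 members in the *Myl7*-high cells of day 11, split into *Myl2*-high, *Shox2*-high and neither, with exact Poisson intervals as error bars on axes that start at 0. *Tbx5* is at 94.5 CPM in *Shox2*-high and 37.8 in *Myl2*-high cells, *Tbx20* at 65.2 and 86.8.

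All 10 pairs of members were examined for detection in the same cell. At days 6 and 11 *Tbx5* with *Tbx20* had the highest ratio of cells with both genes to the number their single shares give. The sparse pair *Tbx1* with *Tbx3*, at 2.05 times at day 6, did not differ from it there beyond counting error. At day 6, 781 of the 5239 cells held both, 2.11 times (2.01 to 2.21) the number that independence of the 2 genes would give. Of the *Tbx20*-positive cells 53.1% held *Tbx5*, against 14.2% of *Tbx20*-negative cells. At day 11, 595 of 7837 cells held both, 3.06 times (2.87 to 3.24) the number under independence, and 50.6% of *Tbx20*-positive cells held *Tbx5* against 10.6% of the others. After thinning to 5000 UMIs the excess was 2.52 times at day 6 and 3.04 times at day 11. Within *Myl7*-high cells it was 1.05 times at day 6 and 1.16 times at day 11, and within other cells 2.28 and 3.44 times. A ratio of this kind is capped by the larger single share, so the 2 sets of cells are not compared by it. *Tbx20* was in 70.4% of all *Myl7*-high cells at day 6 and in 58.3% at day 11. Among those with *Tbx5* the shares were 74.0% (68.4 to 79.1) and 67.7% (64.0 to 71.3). The day 6 interval thus spans the 70.4%.

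*Tbx2* and *Tbx3* were found together 1.51 times (1.36 to 1.67) as often as under independence at day 6 and 1.71 times (1.60 to 1.82) at day 11, or 1.57 and 1.87 times after thinning. *Tbx2* with *Tbx20* was above that number at day 6, at 1.39 times (1.29 to 1.484), and below it at day 11, at 0.693 times (0.600 to 0.794), or 1.68 and 0.436 times thinned. Inside the *Myl7*-high cells of day 11, however, 80.6% of the 139 *Tbx2*-positive cells held *Tbx20*, against 55.6% of *Tbx2*-negative cells, so the few muscle cells with *Tbx2* did not lack *Tbx20*. At equal depth 16 of 38 thinned *Tbx2*-positive cells held *Tbx20*, 1.49 times the number under independence. This share of 42.1% (26.3 to 59.2) has an interval that spans the 27.9% of *Tbx2*-negative cells. The excess at equal depth is therefore not beyond counting error. *Tbx1* with *Tbx3* was above it on both days, at 2.05 times (1.47 to 2.69) and 1.65 times (1.23 to 2.11). *Tbx1* and *Tbx20* shared 10 cells at day 6, 0.352 times that number (0.173 to 0.621), and 3 at day 11, 0.171 times (0.0355 to 0.488). After thinning no cell held both on either day, where independence would give 2.79 and 2.96 cells. Of the 25 and 39 thinned *Tbx1*-positive cells, the share with *Tbx20* had intervals of 0 to 13.7% and 0 to 9.03%. These span the overall thinned *Tbx20* shares of 11.2% and 7.58%, so the thinned values are not beyond counting error. Of *Myl7*-high cells 29.4% held 3 or more of the 5 members at day 6 and 14.0% at day 11, against 7.13% and 2.19% of other cells. Thinned to equal depth these were 1.89% and 1.11%, against 0.415% and 0.503%.

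Genes of pathways around these factors are given for the same comparison, *Myl7*-high against other cells. Of 16 cardiac transcription factors tested, 8 were higher by 2-fold or more at day 6 and 1 lower (8.78% and 19.4% of all genes). At day 11, 10 were higher and none lower (11.5% and 29.1% of all genes). The median ratios of these factors were 2.12 and 2.65. *Nkx2-5*, a partner of *Tbx5* and *Tbx20*, had a ratio of 25.8 at day 6 (23.2 to 28.7) and 24.1 at day 11 (22.0 to 26.4). *Myocd*, a coactivator of muscle genes, was at 18.4 and 18.0, and *Irx4*, a ventricular factor, at 16.9 and 27.8. *Gata4*, whose protein binds with Tbx5 and Tbx20, was at 2.82 (2.62 to 3.03) and 3.77 (3.45 to 4.11). *Shox2* was at 7.14 and 16.2. The 1 lower at day 6 was *Sall4*, at 0.485 (0.416 to 0.561), named after its value was seen.

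Genes listed as chamber genes, many of them known targets that *Tbx5* and *Tbx20* activate or *Tbx2* and *Tbx3* repress, numbered 12 tested at day 6 and 13 at day 11. The list also holds some ion channel genes of pacemaker tissue, so its counts and medians are not for chamber genes alone. At day 6, 8 were higher and 2 lower (8.78% and 19.4% of all genes). At day 11, 10 were higher and 3 lower (11.5% and 29.1% of all genes). Their median ratios were 8.11 and 21.2. *Nppa*, encoding atrial natriuretic peptide, was at 3.52 CPM in *Myl7*-high cells at day 6 and 178.8 at day 11, against 0.101 and 1.04 in other cells. *Myh6*, the alpha myosin heavy chain, was at 551.1 and 2586 CPM in *Myl7*-high cells, with ratios of 277.6 and 119.3. *Myl2* had ratios of 359.1 and 21.2, and *Smpx*, a small muscle protein gene, 47.8 and 40.6. The genes that were lower are named after their values were seen. At day 6 they were *Gja1* (0.184, 0.152 to 0.221) and *Gja5* (0.363, 0.0736 to 1.09, an interval that spans 1). *Gja5* was higher at day 11, at 9.99. The 3 lower at day 11 were *Gja1* (0.450), *Kcnj2* (0.412) and *Cacna1g* (0.211).

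Among BMP ligands and effectors, a pathway known to induce *Tbx2* and *Tbx3*, 4 of 16 tested genes were higher and 1 lower at day 6 (8.78% and 19.4% of all genes). At day 11, 4 were higher and 7 lower (11.5% and 29.1% of all genes). The medians of this list were 0.947 and 0.616. The ligands *Bmp4* (5.40 and 4.31 times at days 6 and 11) and *Bmp7* (4.93 and 5.85 times) were higher on both days. The inhibitor of differentiation genes *Id1* and *Id3*, known BMP targets, had ratios of 0.531 and 0.547 at day 6 and 0.119 and 0.142 at day 11, and *Msx1* 0.211 and 0.0600. The level of *Id1* in *Myl7*-high cells was 182.7 CPM at day 6 and 27.8 at day 11.

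Of 19 tested genes around *Tbx1* in the pharynx, 13 were lower and 1 higher at day 6 (19.4% and 8.78% of all genes). At day 11, 14 of these 19 were lower and none higher (29.1% and 11.5% of all genes). Their median ratios were 0.284 and 0.113, or 0.128 at day 11 with *Shh*, which had no UMI in *Myl7*-high cells, set at 3 UMIs. *Fgf10*, a second heart field ligand, was the 1 higher at day 6, at 2.64 times (2.27 to 3.06), and is named after its value was seen. *Gbx2* was at 0.0294 (2 UMIs, 0.00356 to 0.107) and 0.0148 (2 UMIs, 0.00178 to 0.0536). *Shh*, a signal of the pharyngeal endoderm, was at 0.0483 at day 6, and *Aldh1a2*, which makes retinoic acid, at 0.0436 at day 11.

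The other 12 T-box genes were mostly low. 7 could be tested at day 6, of which 4 were lower by 2-fold or more and none higher (19.4% and 8.78% of all genes). At day 11, 5 could be tested, of which 2 were lower and 1 higher (29.1% and 11.5% of all genes). Their median ratios were 0.225 and 0.759, with day 6 at 0.742 and 2 lower when the 3 genes without a UMI in *Myl7*-high cells were set at 3 UMIs there. *T* and *Eomes*, factors of the primitive streak, were at 39.1 and 55.7 CPM over all cells at day 4 and at 6.16 and 0.443 at day 6. *Tbx18*, of the epicardium and sinus horns, had ratios of 0.742 (0.541 to 0.997) at day 6 and 0.297 (0.199 to 0.429) at day 11. *Tbx4*, the neighbour of *Tbx2*, stayed at or under 0.476 CPM over all cells of every day. *Tbx6* had ratios of 0.225 (0.0963 to 0.446) at day 6 and 2.39 (1.14 to 4.86) at day 11. They rest on only 8 and 15 UMIs in *Myl7*-high cells, and at day 11 on 0.575 against 0.241 CPM.

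Likeness was measured as the Pearson correlation of log2(CPM + 1) over the 62 clusters of at least 50 cells of the 4 libraries, among 10436 genes that reached 20 CPM in a cluster. Clusters of 1 library share its cells' handling and depth, so these values are descriptions. Among the genes most like *Tbx5* were *Corin* (0.89) and *Spon1* (0.86). *Tbx20* was most like *Gata4* (0.86), *Gata6* (0.86) and *1010001N08Rik* (0.82). *Tbx2* was most like *Zim1* (0.82), *Capn6* (0.79) and *Snai2* (0.78), *Tbx3* like *Abcd4* (0.69), *Fkbp11* (0.67) and *Gfpt2* (0.66), and *Tbx1* like *Barx2* (0.74), *Rab15* (0.69) and *Cpm* (0.66). Between members the highest value was 0.77 for *Tbx5* with *Tbx20*, and *Tbx1* with *Tbx20* was at -0.23. *Tbx2* with *Tbx3* was at 0.18 over the clusters of all 4 days.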

How the data were processed

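Single-cell RNA was measured in 1 library per day. For each library the authors deposited a matrix of raw UMI counts per gene and called cell. The processing notes name Cell Ranger 3.1.0 and mm10; the matrix header of day 11 names version 6.0.1. Annotation release and strand setting are not given in the sources used here. Barcodes with at most 200 genes, 20% or more mitochondrial UMIs, at most 5% ribosomal protein UMIs, or a log10 total beyond 3 scaled MAD of the median were dropped, then the 8% scored most like simulated doublets. For equal-depth shares cells were thinned to 5000 UMIs, leaving out 2 shallower cells at day 6 and 308 at day 11. Depth at day 11 is under that of the other days, which widens the intervals there. Intervals are exact Poisson (CPM), Clopper-Pearson (shares) and conditional binomial (ratios of levels). For co-detection ratios, the Clopper-Pearson bounds of the share of the first gene's cells with the second were divided by the second gene's overall share. That overall share was taken as fixed.

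Cells of each day were clustered on 2000 variable genes without T-box genes and *Myl7* (30 components, 20 neighbours, leidenalg 0.10.2, resolution 1). A class name needed at least 3 of its markers raised by 2-fold (CPM + 10) in at least 10% of cells, more than any other class and led by no other. Calculations used Python 3.11.15, numpy 2.4.6 and scipy 1.17.1, and the ratio step was tested on simulated data. The members, lists, markers and rules were chosen with earlier results of these data known. Named genes are the members, *Myl7*, up to 4 genes per list, 3 most alike genes per member, 3 leading genes per cluster described and class markers. Genes said to be named after their values were seen come on top of these. One of these genes is not reported here. Positions are from GENCODE vM21. Alternatives were other cell filters, doublets left in, per-cell means, other *Myl7* limits, at least 2 UMIs, other thinning depths, other resolutions and no count minimum.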

Additional observations from a re-analysis of the deposited data

Results flagged for a closer look

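*Tbx2* was flagged because its comparison of *Myl7*-high with other cells took opposite directions at 2 times, with ratios of 2.33 (2.08 to 2.61) at day 6 and 0.267 (0.229 to 0.309) at day 11. The difference between the days was not tested, since each day is 1 library. The direction of both ratios held under all 6 alternatives run for them, at 2.17 to 2.51 for day 6 and 0.228 to 0.402 for day 11. The *Tbx2* level of *Myl7*-high cells itself was 32.4 CPM at day 6 and 7.43 at day 11, and that of other cells 13.9 and 27.9. The mesenchyme-like class, in which *Tbx2* was at 52.3 CPM, made up 2412 of the 7837 cells of day 11 and 493 of 5239 at day 6, where it held 15.8 CPM. The part of this make-up in the ratio was not tested. Days 6 and 11 also differ in median depth, culture medium and the version in the matrix headers, which cannot be told apart from the day.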

How the results depend on the processing

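The 10 *Myl7* ratios had 60 alternative values. Where the interval of the reported ratio excluded 1, none of these lay on the other side of 1. The interval of *Tbx3* at day 6 spanned 1, so its alternative values were not judged by side. Over every cell with more than 200 genes *Tbx5* and *Tbx20* at day 6 were at 3.58 and 3.52 and *Tbx2* at day 11 at 0.402. With doublets left in these 3 were at 3.70, 3.53 and 0.339, and *Tbx5* and *Tbx20* at day 11 at 5.29 and 7.34. As means of per-cell CPM the day 6 ratios of *Tbx5* and *Tbx20* were 3.51 and 3.38, and at day 11 *Tbx2*, *Tbx3* and *Tbx5* were at 0.228, 0.577 and 4.81. With a *Myl7* limit of 100 per 10000, *Tbx3* and *Tbx20* at day 6 were at 1.51 and 3.60, and *Tbx1*, *Tbx5* and *Tbx20* at day 11 at 0, 5.27 and 4.42. A limit of 10 gave 9.93 for *Tbx20* at day 11. Against cells under 3 per 10000, *Tbx5* and *Tbx20* were at 5.46 and 4.82 at day 6, and *Tbx20* at 10.1 at day 11.

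Co-detection depended more on depth. Counting cells from 2 UMIs, *Tbx5* with *Tbx20* was at 3.09 and 5.03 at days 6 and 11, *Tbx2* with *Tbx3* at 2.26 on both days and *Tbx2* with *Tbx20* at 1.95 and 0.796. Thinned to 3000 UMIs the same pairs were at 3.19 and 2.51, 1.36 and 2.12, and 1.58 and 0.436. Thinned to 5000 UMIs, *Tbx5* with *Tbx20* was at 2.52 at day 6, *Tbx2* with *Tbx3* at 1.87 at day 11, and *Tbx2* with *Tbx20* at 1.68 and 0.436. Thinned to 10000 they were at 2.36 and 2.50, 1.84 at day 11, and 0.584 at day 11. Pairs whose reported interval spanned 1 were left out of the list below. *Tbx1* with *Tbx5* at day 4 was such a pair, at 0 thinned to 5000 UMIs (from 1.98). Among pairs whose interval excluded 1, others crossed it. Thinned to 3000 UMIs these were *Tbx2* with *Tbx5* at day 4 (0, from 1.95), *Tbx5* with *Tbx20* at day 4 (0.706, from 1.75), *Tbx1* with *Tbx2* at day 5 (3.15, from 0.708) and at day 11 (0.937, from 1.60). *Tbx3* with *Tbx5* at day 5 was 0.952 thinned to 10000 (from 1.19), *Tbx1* with *Tbx5* at day 11 was 1.04 thinned to 5000 (from 0.516), and *Tbx3* with *Tbx20* at day 11 was 1.27 from 2 UMIs (from 0.838). The cause of these differences was not tested.

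At day 6, 1362 genes were higher by 2-fold or more in *Myl7*-high cells with at least 30 UMIs, and 2413 with 1 UMI on each side as the minimum. At resolution 0.5, 12 of 120 class levels moved by over 1.5 times, and at 1.5, 4 of 130. No paired analysis was possible because each day is 1 library. Without replicate libraries the spread between cultures is unknown.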
